A study of Mus musculus with 8 samples.

Results

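The 10 receptors examined here belong to the BMP and TGF-beta family and were measured in mammary epithelial cells of pregnant mice in which one of them, Bmpr1a, had been targeted. They were chosen by symbol as the BMP type I receptors Bmpr1a, Bmpr1b, Acvr1 and Acvrl1, the activin and TGF-beta type I receptors Acvr1b and Tgfbr1, and the type II receptors Bmpr2, Acvr2a, Acvr2b and Tgfbr2. All 10 symbols matched 1 row each among the 55933 gene rows, and the rule that picks the rows uses symbols alone. The question was whether any receptor other than Bmpr1a differed between the groups.

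Both groups were on a C57BL/6 background. The control group held 4 mice labelled WT, and the cKO group held 4 doxycycline-treated mice carrying K14-rtTA, teto-Cre and Bmpr1a fl/fl. All were pregnant, at day 14.5. Controls were littermates, but which mice shared a litter and which transgenes or doxycycline the controls received are not given in the sources used here. Each mouse gave 1 RNA-seq library from cells freed from the gland by enzyme digestion, without sorting. The K14 promoter, which is active in myoepithelial (basal) cells, drives the deletion, while luminal cells, in which that promoter is not meant to act, are part of the same libraries.

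Values are FPKM, fragments counted on a gene relative to its exon length and to a library size. This scale allows levels of different genes to be compared per length. The library size was not the plain read total. The median ratio of a library's values to the geometric means of the genes was 1.006 in every library, as after scaling by such medians. The summed FPKM differed, from 291204 in control replicate 2 to 348018 in cKO replicate 4. Each gene has 1 FPKM over all its exons. The deleted exons of Bmpr1a are not named in the sources used here, and reads by exon were not analysed here. Reads on genes numbered between 16123108 and 19896988 per library.

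Receptors of this family are serine/threonine kinases. A dimeric ligand joins type II receptors, which are constantly active, to type I receptors, which are then phosphorylated and pass the signal to SMAD transcription factors. BMP type I receptors act mainly through Smad1, Smad5 and Smad9, and activin and TGF-beta type I receptors through Smad2 and Smad3. In the mammary gland TGF-beta is known as a brake on ductal growth and on milk protein synthesis during pregnancy.

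The stretches before the start sites of the targeted gene and of the pair of receptors with the smallest p-values are shown, because the study concerns a GC-box binding factor, SP1, as a regulator in this pathway. They come from RefSeq on GRCm38.p6, run 5′ to 3′ on the gene's strand, and carry the GC box, searched on both strands, in capitals. The box is GGGCGG on the strand shown. Where it lies on the opposite strand, the printed letters are CCGCCC. Bases inside annotated exons were left out.

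Bmpr1a, chr14:34502688-34502796, minus strand: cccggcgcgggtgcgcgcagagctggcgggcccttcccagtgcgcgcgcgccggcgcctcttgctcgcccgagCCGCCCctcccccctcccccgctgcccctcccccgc

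Acvr1b, chr15:101173822-101174066, plus strand: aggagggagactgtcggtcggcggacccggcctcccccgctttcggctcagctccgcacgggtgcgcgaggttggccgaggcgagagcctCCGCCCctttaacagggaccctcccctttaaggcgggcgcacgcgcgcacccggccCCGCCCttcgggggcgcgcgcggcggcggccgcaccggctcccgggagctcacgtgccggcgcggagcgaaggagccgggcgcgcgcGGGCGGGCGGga

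Tgfbr1, chr4:47352972-47353221, plus strand: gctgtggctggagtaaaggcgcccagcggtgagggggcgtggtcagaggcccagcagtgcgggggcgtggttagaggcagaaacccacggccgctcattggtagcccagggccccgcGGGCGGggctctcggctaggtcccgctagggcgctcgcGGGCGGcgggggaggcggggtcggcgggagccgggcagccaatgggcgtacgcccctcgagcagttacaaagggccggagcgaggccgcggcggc

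In the full 250 bases before the start shown, Bmpr1a held 4 GC boxes, of which 1 lies in the exon-free stretch printed. Acvr1b held 4, of which the last pair overlapped, and Tgfbr1 held 2. At least 1 GC box stood in the windows of 7 of the 9 receptors matched in the RefSeq table, and none stood in those of Bmpr1b and Tgfbr2. Acvrl1 was not matched. Some receptors have more than 1 window. Counted by window, 7 of 12 receptor windows held a GC box, beside 32.7% of all 32851 windows of this length. These letter matches describe the windows and are not measured binding sites. Sp1 itself was at 13.6 ± 1.44 FPKM (SD, n = 4) in the control libraries and 15.4 ± 0.892 FPKM in the cKO libraries, with an adjusted p of 0.349 by limma.

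None of the 9 receptors that passed the low-value filter (a mean of at least 0.5 FPKM) changed at an adjusted p under 0.05 in limma, against 0.892% of the 15143 genes tested. At an unadjusted p under 0.05 there were 2 receptors, Acvr1b and Tgfbr1, both higher in cKO, against 16.4% of all genes, so the count of receptors at that level was near that of genes in general. The limma-voom fit on reads recovered from the FPKM also gave 0 receptors at an adjusted p under 0.05 and 2 at an unadjusted one. The groups did not overlap for 1 of the 9 receptors, Acvr1b, against 10.7% of all genes. The tenth, Bmpr1b, was under the filter. The median log2 fold change of the 9 was 0.04, beside 0.001 for all genes tested.

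**Figure D1:**
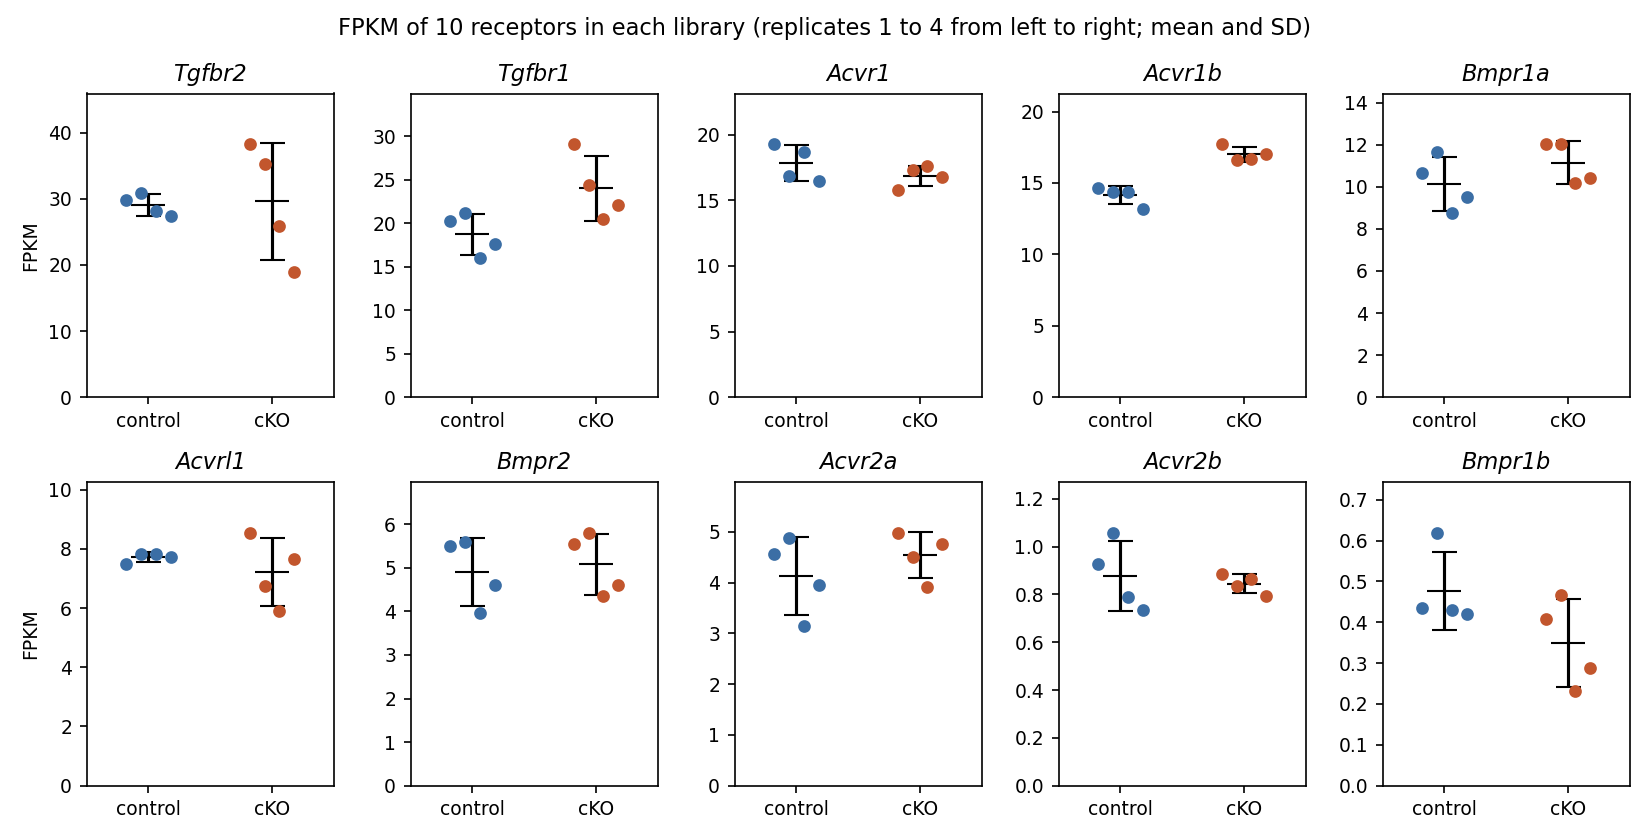
FPKM of the 10 receptors, 1 panel each with its own axis, in the 4 control and 4 cKO libraries (points, replicates 1 to 4 from left to right) with the group mean and SD. Only in the Acvr1b panel do all 4 cKO points, from 16.6 to 17.7 FPKM, lie above all 4 control points, from 13.2 to 14.7 FPKM.

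Tgfbr2 and Tgfbr1, the TGF-beta receptor pair, had the highest mean levels per length, and Bmpr1b the lowest. The order by mean over the 8 libraries was Tgfbr2, Tgfbr1, Acvr1, Acvr1b, Bmpr1a, Acvrl1, Bmpr2, Acvr2a, Acvr2b and Bmpr1b. From Acvr1b to Bmpr2 each receptor exceeded the next in 8 of 8 libraries, and so did Acvr2a over Acvr2b, by 3.97 to 5.99 times, and Acvr2b over Bmpr1b. The other neighbours changed places in at least 1 library: Tgfbr2 exceeded Tgfbr1 in 7 of 8, Tgfbr1 exceeded Acvr1 in 7, Acvr1 exceeded Acvr1b in 6, and Bmpr2 exceeded Acvr2a in 7.

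Bmpr1a, the targeted BMP type I receptor (chromosome 14, 34410734 to 34503341, minus strand), was at 10.6, 11.7, 8.74 and 9.52 FPKM in control replicates 1 to 4 and at 12.01, 12.03, 10.2 and 10.4 FPKM in the libraries labelled cKO. It was not lower in the cKO libraries, and the groups overlapped. The log2 fold change on log2(FPKM + 1) was 0.13 (SE 0.10, 95% interval -0.09 to 0.35), with an adjusted limma p of 0.56 and an exact two-sided permutation p of 0.257. On the linear scale of FPKM + 1 that interval spans folds of 0.94 to 1.27. Between 930 and 1473 reads per library lay behind the values. The gene-level RNA of Bmpr1a did not separate the labelled groups, and the directions below refer to the libraries labelled cKO.

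Acvr1, a BMP type I receptor (chromosome 2, 58388644 to 58567157, minus strand), had the highest mean of the BMP type I receptors. It was at 19.3, 16.9, 18.7 and 16.4 FPKM in the controls and at 15.8, 17.3, 17.6 and 16.7 FPKM in cKO, with overlapping groups. Its log2 fold change was -0.07 (SE 0.07), with an adjusted p of 0.651.

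Acvrl1, a type I receptor for BMP9 and BMP10 known chiefly from endothelial cells (chromosome 15, 101128522 to 101145336, plus strand), was at 7.50, 7.84, 7.84 and 7.72 FPKM in the controls and at 8.55, 6.75, 5.89 and 7.66 FPKM in cKO. Of the cKO libraries, replicate 1 lay above the narrow control range, replicates 2 and 3 below it and replicate 4 inside it. Acvrl1 had a log2 fold change of -0.10 (SE 0.10), with an adjusted p of 0.674. Of 10 endothelial markers, 1 was lower in cKO at an adjusted p under 0.05, as given further on, and the part of endothelial cells in the Acvrl1 values was not tested.

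Bmpr1b, the BMP type I receptor closest to Bmpr1a (chromosome 3, 141837136 to 142169425, minus strand), was low, with 22 to 64 reads per library. It was at 0.436, 0.620, 0.430 and 0.420 FPKM in the controls and at 0.408, 0.468, 0.232 and 0.289 FPKM in cKO. Control replicate 2 was the highest and the groups overlapped. The means were 0.476 ± 0.0957 FPKM in the controls and 0.349 ± 0.108 FPKM in cKO (SD, n = 4), a ratio of 0.733, with an exact two-sided permutation p of 0.2. In a fit without the low-value filter the log2 fold change on log2(FPKM + 1), a scale that understates changes at so low a level, was -0.13 (SE 0.08), with an adjusted p of 0.626.

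**Figure D2:**
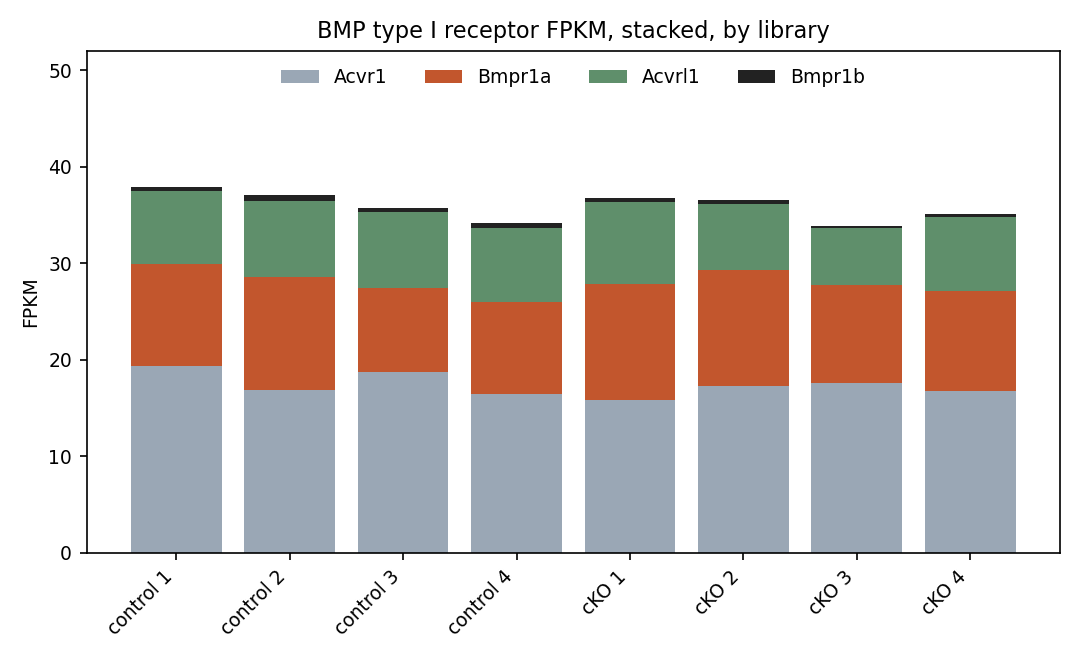
Stacked FPKM of the 4 BMP type I receptors in each of the 8 libraries, on a linear axis from 0. Acvr1 and Bmpr1a fill most of every bar, and Bmpr1b is a thin band at the top.

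The summed FPKM of the 4 BMP type I receptors was 36.2 ± 1.64 (SD, n = 4) in the controls and 35.6 ± 1.34 in cKO, and the groups overlapped. Bmpr1a made up 28.0 ± 2.87% of that sum in the controls and 31.3 ± 1.73% in cKO. Acvr1 made up 49.3 ± 2.98% and 47.5 ± 3.67%, Acvrl1 21.4 ± 1.22% and 20.2 ± 2.77%, and Bmpr1b 1.32 ± 0.242% and 0.975 ± 0.270%. The Bmpr1a shares overlapped between the groups, and none of these shares was tested.

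Acvr1b, the main type I receptor for activin (chromosome 15, 101174067 to 101213684, plus strand), was at 14.7, 14.4, 14.4 and 13.2 FPKM in the controls and at 17.7, 16.6, 16.7 and 17.0 FPKM in cKO. The lowest cKO value thus exceeded the highest control value. The log2 fold change was 0.25 (SE 0.06, 95% interval 0.12 to 0.38), a fold of 1.19, with an unadjusted p of 0.00183, an adjusted limma p of 0.0818 and an exact two-sided permutation p of 0.0286, the smallest that 4 against 4 allows. Taken by set, the log2 difference was 0.23 in replicates 1 and 2 and 0.27 in replicates 3 and 4. Acvrl1 lies 28730 bases before Acvr1b on the same strand, and had a fold change of the opposite sign.

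Tgfbr1, the TGF-beta type I receptor (chromosome 4, 47353222 to 47414931, plus strand), was at 20.2, 21.2, 16.03 and 17.6 FPKM in the controls and at 29.1, 24.4, 20.5 and 22.1 FPKM in cKO. The groups overlapped, since cKO replicate 3 was below control replicate 2. The log2 fold change was 0.34 (SE 0.12, 95% interval 0.06 to 0.61), a fold of 1.26, with an unadjusted p of 0.0214, an adjusted limma p of 0.214 and an exact two-sided permutation p of 0.0571. By set it was 0.35 in replicates 1 and 2 and 0.33 in replicates 3 and 4. In limma the unadjusted p was no longer under 0.05 without cKO replicate 1, the highest library, where it was 0.0538 with a log2 fold change of 0.25. The same held without control replicate 3, at 0.0593 with 0.27, and without control replicate 4, at 0.0532 with 0.31.

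Acvr1b and Tgfbr1 were the receptors whose calls at an adjusted p under 0.05 depended on the fit. With replicates 1 and 2 against 3 and 4 as a block, a split that was chosen with earlier results of these data known and that the labels do not name as a batch, the adjusted p was 0.0419 for Acvr1b and 0.042 for Tgfbr1, and 2.92% of all genes passed. In limma-voom on recovered reads blocked on the replicate number, Acvr1b had an adjusted p of 0.0499 and Tgfbr1 one of 0.0263, and 4.49% of all genes passed. At an unadjusted p under 0.05, 3 receptors passed in each of these fits, beside 3231 and 3389 of the 15143 genes. Bmpr1a was among them, higher in cKO, at an unadjusted p of 0.0376 and 0.0494 in that order. With the values rescaled to the same sum in each library (TPM), the unadjusted p was 0.0508 for Acvr1b and 0.112 for Tgfbr1, so that 0 receptors passed an unadjusted p under 0.05. With the milk genes left out of that sum, it was 0.0255 for Acvr1b and 0.0804 for Tgfbr1, and 1 receptor passed. Both fold changes stayed above 0 in all 19 alternatives.

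**Figure D3:**
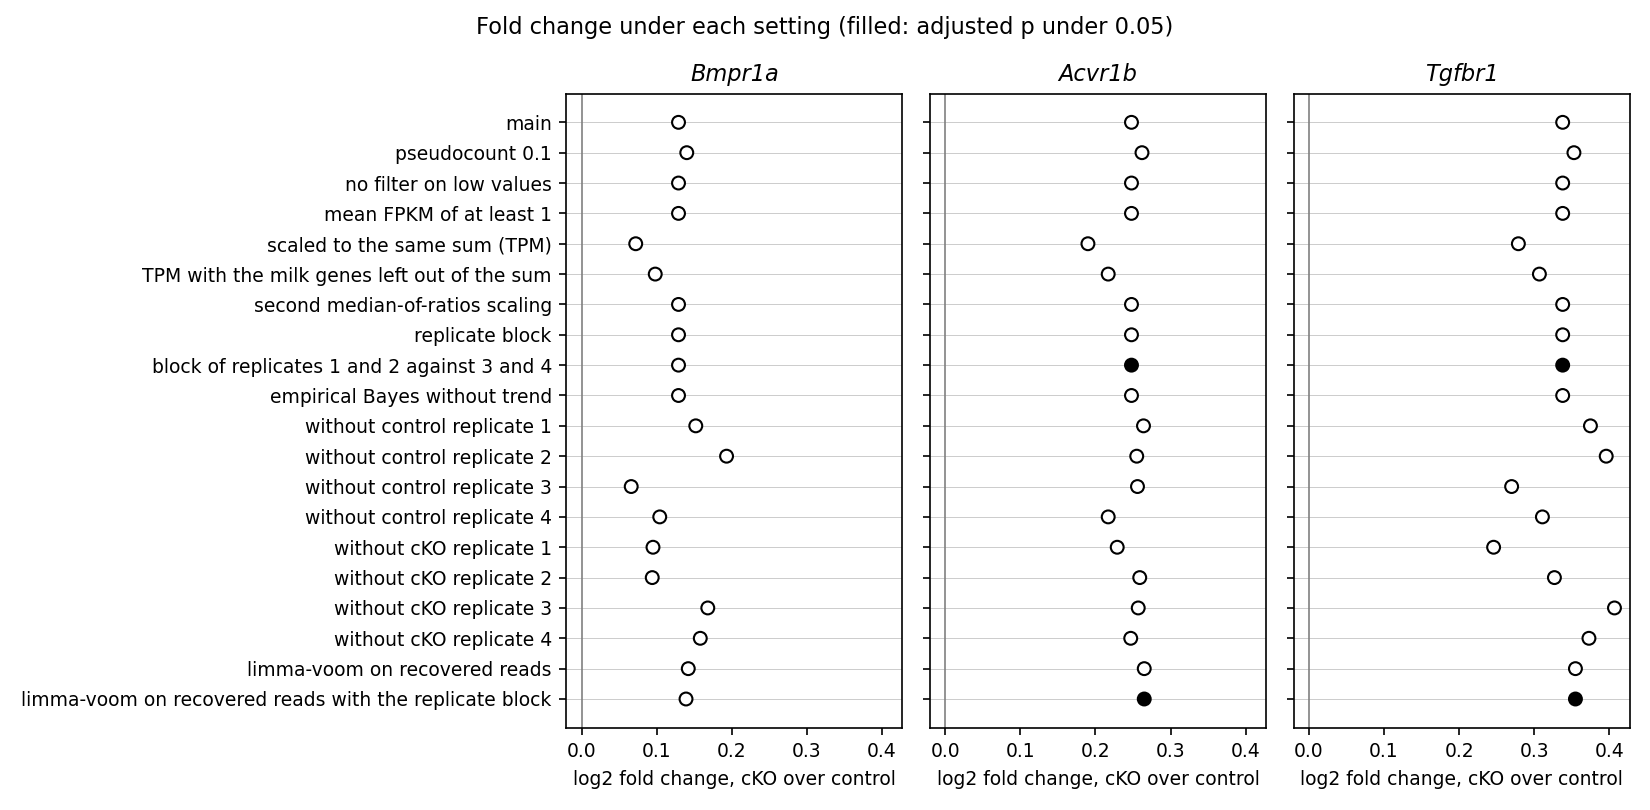
Log2 fold changes of Bmpr1a, Acvr1b and Tgfbr1, cKO over control, under the reported fit and 19 alternatives, with a filled point where the adjusted p was under 0.05. All points lie above 0, from 0.07 to 0.19 for Bmpr1a, from 0.19 to 0.27 for Acvr1b and from 0.25 to 0.41 for Tgfbr1, and the filled points stand in the 2 fits with a block named in the text.

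Tgfbr2, the type II receptor for TGF-beta (chromosome 9, 116084293 to 116175360, minus strand), had the widest spread in cKO. It was at 29.8, 30.9, 28.1 and 27.4 FPKM in the controls and at 38.3, 35.3, 25.9 and 18.9 FPKM in cKO. In cKO replicates 1 and 2 it was above every control and in replicates 3 and 4 below every control, and the means of 29.1 ± 1.61 and 29.6 ± 8.88 FPKM (SD, n = 4) were close. The log2 fold change was -0.02 (SE 0.19, 95% interval -0.46 to 0.41), with an adjusted p of 0.966. By set it was 0.27 in replicates 1 and 2 and -0.31 in replicates 3 and 4. Without cKO replicate 4 it was 0.17.

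The level of Tgfbr2 fell in the order in which milk RNA rose among the cKO libraries. The summed FPKM of 10 milk genes ran 4174, 4593, 5669 and 6038 over the controls, in replicate order, and 9201, 9965, 11650 and 16310 over the cKO libraries. Tgfbr2 in cKO ran from 38.3 FPKM at the lowest of those sums to 18.9 FPKM at the highest, while the controls stayed between 27.4 and 30.9 FPKM. The milk sums also rose with the replicate number in both groups, so milk RNA and replicate order cannot be told apart here. Of the receptors, only Tgfbr2 was set against the milk sums. The part of milk RNA in the Tgfbr2 values was not tested.

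**Figure D4:**
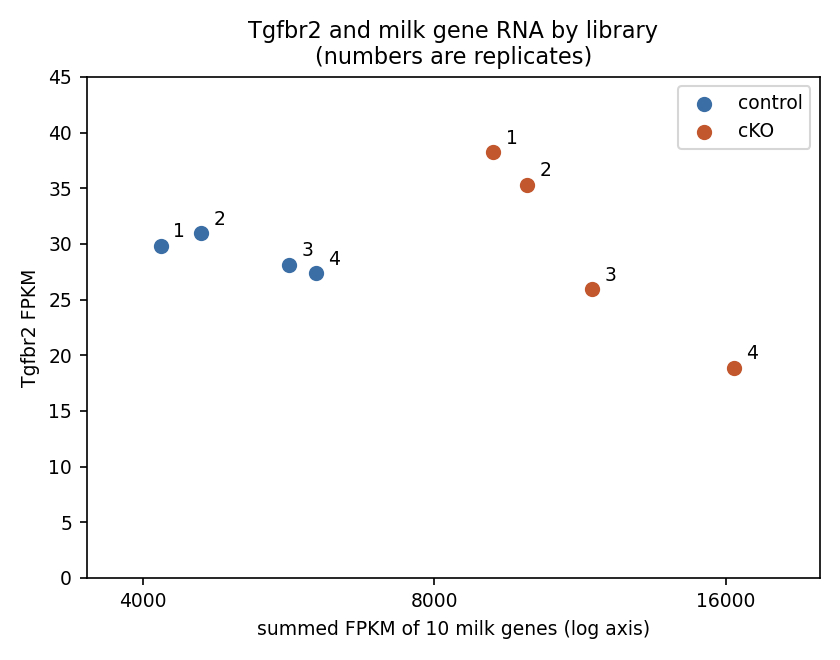
Tgfbr2 FPKM (vertical axis) against the summed FPKM of 10 milk genes (horizontal log axis) in the 4 control and 4 cKO libraries, with replicate numbers. The controls sit together at milk sums of 4174 to 6038, and the cKO points step down from 38.3 to 18.9 FPKM as the milk sum goes from 9201 to 16310.

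Bmpr2, the type II receptor most specific to BMPs (chromosome 1, 59763400 to 59879014, plus strand), was at 5.51, 5.59, 3.95 and 4.61 FPKM in the controls and at 5.55, 5.81, 4.35 and 4.60 FPKM in cKO. Replicates 1 and 2 were above replicates 3 and 4 in both groups. Bmpr2 had a log2 fold change of 0.04 (SE 0.12), with an adjusted p of 0.899, and its sign turned when control replicate 3 (-0.04) or cKO replicate 2 (-0.02) was left out or under TPM scaling (-0.01).

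Acvr2a, a type II receptor shared by activins and BMPs (chromosome 2, 48814109 to 48903269, plus strand), was at 4.56, 4.87, 3.14 and 3.95 FPKM in the controls and at 4.98, 4.51, 3.92 and 4.76 FPKM in cKO. The groups overlapped, and the log2 fold change was 0.12 (SE 0.12) with an adjusted p of 0.661. Orc4 overlaps Acvr2a on the opposite strand with up to 779 reads per library. Whether strand was used in counting is not given in the sources used here, so reads of the overlap cannot be assigned with certainty.

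Acvr2b, the other activin type II receptor (chromosome 9, 119402118 to 119434995, plus strand), was low, with 52 to 72 reads per library. It was at 0.925, 1.06, 0.790 and 0.733 FPKM in the controls and at 0.884, 0.833, 0.866 and 0.795 FPKM in cKO, where all libraries lay inside the control range. Its log2 fold change was -0.02 (SE 0.08), with an adjusted p of 0.924, and 0.02 without control replicate 2.

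**Figure D5:**
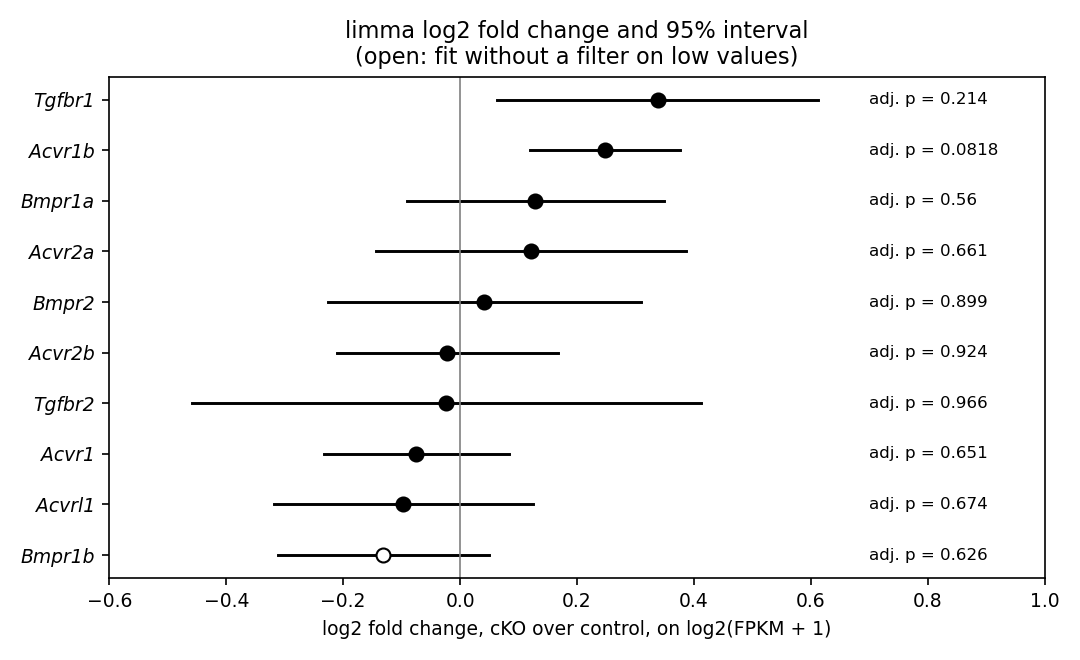
Limma log2 fold changes on log2(FPKM + 1), cKO over control, with 95% intervals for the 10 receptors (open point for Bmpr1b, from the fit without a filter). The intervals of Acvr1b (0.12 to 0.38) and Tgfbr1 (0.06 to 0.61) lie above 0, and the other intervals cross it.

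For the 7 tested receptors other than Acvr1b and Tgfbr1, the 95% intervals of the fold of FPKM + 1 lay between 0.73 and 1.33. Both ends came from Tgfbr2. The narrowest interval, that of Acvr1, ran from 0.85 to 1.06. This scale understates changes at levels as low as that of Acvr2b.

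The levels of Bmpr1a moved across the 8 libraries most like those of Vps54 (Pearson r = 0.992), Mob1b (r = 0.991) and Bicral (r = 0.984), the highest of the genes tested. Among the receptors, r with Bmpr1a was 0.913 for Bmpr2, 0.891 for Tgfbr1 and 0.872 for Acvr2a, from 0.533 to 0.593 for Acvr1b, Tgfbr2 and Acvr2b, 0.059 for Acvrl1 and -0.431 for Acvr1. These values describe log2(FPKM + 1) over 8 libraries that share the scaling of the table, and are given without a test.

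Other receptors and co-receptors of the pathway gave no call. Of 10 genes, 6 were tested, 0 passed an adjusted p under 0.05, and at an unadjusted p under 0.05, 1 was higher and 1 lower, against 8.85% and 7.53% of all genes. Without control replicate 1 or control replicate 3, 0 were lower. Eng, the endothelial co-receptor that works with Acvrl1, was at 19.9 ± 2.06 FPKM in the controls and 15.9 ± 2.05 FPKM in cKO (log2 fold change -0.31, adjusted p 0.207), and its groups did not overlap. The BMP co-receptor Rgma had a log2 fold change of 0.21 (adjusted p 0.272), and the RGM receptor Neo1 one of 0.12 (adjusted p 0.36). Acvr1c, Amhr2, Hjv and Tdgf1 were under the filter.

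Among ligands, 17 of 31 were tested and 0 passed an adjusted p under 0.05, while 2 were higher and 5 lower at an unadjusted one, with a median log2 fold change of -0.17. The counts of this and the following lists are to be read against the same shares of all genes tested, 8.85% higher and 7.53% lower at an unadjusted p under 0.05, and against 49.8% with a negative log2 fold change. Gdf15 had the smallest p (19.4 to 27.6 FPKM in the controls, 9.06 to 15.1 FPKM in cKO, log2 fold change -0.91, adjusted p 0.0624), followed by Gdf9 (-0.39, a ratio of mean FPKM of 0.472 at a level under 1 FPKM, adjusted p 0.12) and Bmp7 (-0.30, adjusted p 0.128). The groups of all 3, which were picked by their small p, did not overlap, against 10.7% of all genes tested. With replicates 1 and 2 against 3 and 4 as a block, the adjusted p of Gdf15 was 0.00324.

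Of 15 antagonists, which bind ligands outside the cell, 10 were tested, 0 passed an adjusted p under 0.05 and 2 were lower at an unadjusted one, or 1 without control replicate 1 and 3 without control replicate 3. Fst, which binds activin, was at 55.2 ± 5.56 FPKM in the controls and 36.3 ± 4.96 FPKM in cKO (log2 fold change -0.59, adjusted p 0.0502), with no overlap. Its adjusted p was 0.0371 with that block. The BMP antagonist Nbl1 had a log2 fold change of -0.34 (adjusted p 0.285) and Fstl1 one of -0.43 (adjusted p 0.376).

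Inside the cell, 7 of 8 SMADs were tested and none passed even an unadjusted p under 0.05 in limma. The inhibitory Smad7 had a log2 fold change of -0.25 (adjusted p 0.307), Smad1 one of -0.12 (adjusted p 0.455) and the inhibitory Smad6 one of -0.16 (adjusted p 0.497). Of 15 genes for receptor binding and turnover, all were tested, 0 passed an adjusted p under 0.05 and 2 were lower at an unadjusted one. Pmepa1, a TGF-beta-induced inhibitor of the pathway, was at 42.1 to 66.3 FPKM in the controls and 35.6 to 38.4 FPKM in cKO (log2 fold change -0.49, adjusted p 0.0984), with no overlap. Ski, a co-repressor of SMADs, had a log2 fold change of -0.21 (adjusted p 0.189), and Hgs, an endosomal sorting protein, one of -0.13 (adjusted p 0.466).

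Target genes also gave no call at an adjusted p under 0.05. Of 11 BMP target genes tested, 9 had a lower mean in cKO and 1 was lower at an unadjusted p under 0.05, near the share of all genes, with a median log2 fold change of -0.14. That gene was Id4, an inhibitor of basic helix-loop-helix factors (9.46 ± 0.955 to 6.71 ± 1.07 FPKM, log2 fold change -0.44, adjusted p 0.0952), whose groups overlapped. Of 7 TGF-beta target genes tested, 6 had a lower mean and 1 was lower at an unadjusted p under 0.05, with a median of -0.15. That gene was Pmepa1, which also stands in the list for receptor binding and turnover. Smad7, a target of both branches, is given above, and Tgfbi, a matrix protein induced by TGF-beta, had a log2 fold change of -0.28 at an unadjusted limma p of 0.154.

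Markers of the cell types in the preparation were read from the same fit. Myoepithelial markers, from the cells the deletion addresses, summed to 1985 to 2704 FPKM in the controls and 1810 to 2506 FPKM in cKO, and luminal markers to 4695 to 5918 and 4671 to 6007 FPKM, and 0 of 10 tested in either list passed an adjusted p under 0.05. With replicates 1 and 2 against 3 and 4 as a block, under which 2.92% of all genes passed, 3 myoepithelial markers were lower, Trp63 (adjusted p 0.0456) and Krt14 (0.0187) among them, and 2 luminal markers were higher, Elf5 (0.00651) and Cd24a (0.0428). Without a block, each list had 6 of 10 means higher in cKO and 4 lower, at a median log2 fold change of 0.025. The smallest p-values in these lists were those of Oxtr (log2 fold change 0.85), Trp63 (-0.42) and Krt14 (-0.39) among the myoepithelial markers and of Elf5 (0.82), Cd24a (0.38) and Epcam (-0.18) among the luminal ones. Endothelial markers summed to 133.2 to 154.3 FPKM in the controls and 105.2 to 141.3 FPKM in cKO, with 10 of 10 means lower and 1 call, Vwf (log2 fold change -0.46, adjusted p 0.0268), followed by Pecam1 (-0.29) and Emcn (-0.31). Means were also lower for 9 of 9 fibroblast, 5 of 5 pericyte, 8 of 8 macrophage and 4 of 4 lymphocyte markers tested, with 0 calls. Those with the smallest p were Fbln1 (log2 fold change -0.46), Dpt (-0.61) and Col1a1 (-0.42), Rgs5 (-0.38), Notch3 (-0.11) and Kcnj8 (-0.12), C1qa (-0.48), Adgre1 (-0.41) and C1qb (-0.46), and Cd79a (-1.38) and Cd3d (-0.47). At an unadjusted p under 0.05, 1 fibroblast, 0 pericyte, 4 macrophage and 2 lymphocyte markers were lower, against 7.53% of all genes. Lymphocyte markers summed to 12.17, 4.594, 27.87 and 3.536 FPKM in control replicates 1 to 4 and to 1.742 to 4.134 FPKM in cKO, so that control replicates 1 and 3 stood apart, and without control replicate 1 their count was 0. Endothelial markers counted 3 at that unadjusted threshold, and 1 without control replicate 1 or control replicate 3. The macrophage count was 2 without control replicate 1. Adipocyte markers had 1 call, Cidec, which was higher (log2 fold change 0.86, adjusted p 0.0377), followed by Adipoq (0.71) and Fabp4 (0.21). Log2 fold changes on FPKM + 1 understate changes at low levels, and the ratio of mean FPKM was 4.05 for Cidec and 4.12 for Adipoq. Of 10 milk genes, 4 were higher at an adjusted p under 0.05, Muc15, Wap, Csn1s2a and Csn2, and 10 of 10 means were higher. Under TPM scaling 7 milk genes passed, as did 7 with replicates 1 and 2 against 3 and 4 as a block. No marker was at 0 in all libraries. In such bulk samples fewer cells of a type and less RNA per cell cannot be told apart, and the part of these cell types in the receptor values was not tested.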

How the data were processed

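RNA of 4 control and 4 cKO mice was sequenced, 1 library per mouse. The submitters' processing notes name StringTie 1.3.3b and featureCounts 1.5.0-p3, and the study aligned to GRCm38. The authors deposited gene FPKM, and coordinates are as in that table (55394 of 55933 IDs are in GENCODE vM21, 99.68% with the same position). Whole reads were recovered from the deposited FPKM for all values within 0.01 of a whole number, and depth is their sum, 16123108 to 19896988 per library. At this depth Bmpr1b and Acvr2b had 22 to 72 reads per library.

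The genes whose FPKM averaged 0.5 or more entered limma 3.58.1 (R 4.3.3), with group as the only term, a pseudocount of 1 before log2, a trend in the variance and Benjamini-Hochberg adjustment. Single values were also compared by exact two-sided permutation of FPKM. The labels do not say more of the replicates than 1 mouse each. Named genes were the receptors, the 3 members of each list with the smallest p plus those called, 3 genes most like Bmpr1a, and Sp1, and 1 gene that this rule names is not reported here. Receptors and lists were chosen with earlier results of these data known. The scripts were tested on simulated data, where limma recovered 60.5% of the planted changes and 86.9% of those of at least 2-fold. Of its calls there, 6.52% were of unchanged genes. No planted change was under 0.5 log2 units, so recovery of changes as small as those of Acvr1b and Tgfbr1 was not tested. The alternatives changed the pseudocount, filter, scaling, block, libraries or model (limma-voom).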

Additional observations from a re-analysis of the deposited data

Results flagged for a closer look

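In 5 of 132 groups of 4 libraries, 1 library stood far from the other 3, where chance at 1 in 20 gives about 6.6. Control replicate 2 had 0.62 FPKM of Bmpr1b, while the remaining controls had 0.42 to 0.436 FPKM, and its share of the summed BMP type I FPKM there was 1.67%, against 1.15 to 1.23%. Nbl1 was at 27.0 FPKM in control replicate 4, against 20.4 to 21.3. Id4 was at 8.3 FPKM in cKO replicate 1, against 6.0 to 6.38. Wap was at 323 FPKM in cKO replicate 4, the library with the lowest Tgfbr2, against 128 to 148.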

How the results depend on the processing

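The count of receptors changed (0 of 9 tested) was 2, Acvr1b and Tgfbr1, with replicates 1 and 2 against 3 and 4 as a block and in limma-voom with the replicate block, and 0 in the other alternatives. Of all genes, 135 changed, 10 without the low-value filter, 442 with that block of replicates, 252 in limma-voom and 680 in limma-voom with the replicate block. Leaving out 1 library gave 0 (without control replicate 4, with 2134 at an unadjusted p under 0.05) to 78. The genes of the pathway and marker lists other than milk genes gave 2 calls, and 5 under TPM scaling.

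The log2 fold change of Bmpr1a ranged from 0.07 to 0.19 and its adjusted p from 0.203 to 0.847 over 19 alternatives. Signs turned for Bmpr2 under TPM (-0.01). Leaving out 1 library gave -0.041 to 0.10 for Bmpr2 (-0.016 without cKO replicate 2), -0.059 to 0.024 for Acvr2b and -0.16 to 0.17 for Tgfbr2, where Tgfbr2 was 0.01 without control replicate 2, 0.02 without cKO replicate 3 and 0.17 without cKO replicate 4. The cause of these changes was not tested.

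Same-numbered control and cKO libraries deviated from their group means with a correlation of 0.111 on average (0.08 to 0.137), against 0.13 for other numbers within replicates 1 and 2 or 3 and 4 and -0.12 across these sets, and 3 of 8 libraries correlated best with their own number, so the numbers were not taken to pair the mice. The replicate block gave 50 genes, 0 receptors and 2 listed genes, in which Gdf15 (adjusted p 0.0283) and Elf5 (0.0357) took the place of Vwf (0.0614) and Cidec (0.0727), and an adjusted p of 0.0879 for Acvr1b, 0.0749 for Tgfbr1 and 0.247 for Bmpr1a.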

Other observations

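A summed and a relative receptor level, chosen after their values were seen and therefore given without a test, separated the groups. The summed FPKM of Acvr1b and Tgfbr1, the activin and TGF-beta type I receptors, ran 34.9, 35.5, 30.4 and 30.8 over the controls, in replicate order, and 46.8, 41.0, 37.2 and 39.1 over the cKO libraries, with no overlap. The summed type II receptors were 39.0 ± 3.15 FPKM (SD, n = 4) in the controls and 40.1 ± 9.67 FPKM in cKO, and overlapped. The ratio of Tgfbr2 to Tgfbr1 was 1.48, 1.46, 1.75 and 1.56 in the controls and 1.32, 1.45, 1.26 and 0.855 in cKO, so that the highest cKO ratio was under the lowest control ratio and cKO replicate 4 was the one with less Tgfbr2 than Tgfbr1. The ratio of Bmpr1a to Bmpr2 was 2.07 ± 0.115 in the controls and 2.21 ± 0.116 in cKO, and overlapped.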
